A study of Rattus norvegicus with 16 samples.

Results

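Oxidative phosphorylation and the citrate cycle were followed as a list of 59 nuclear genes, read by complex and by cycle step. Of these, 45 genes had at least 1 probe set (a group of short oligonucleotides read as 1 value) that the platform annotation assigns to that gene alone, 78 probe sets in all. The array names 4736 genes in this way, and 4316 of them, all 45 members included, passed the filter on low values and were tested. The other 14 listed genes were not analysed here: Idh3a, Idh3b, Ogdh, Sdhb, Sdhc, Sdhd, Cycs, Uqcrc1, Cox7a2, Atp5mc1, Atp5mc2, Atp5mc3, Atp5me and Vdac2. Where a gene had several probe sets, which held for 23 members, the set with the highest mean over all arrays stood for it. Of the 45 members, 44 lay above the low-intensity floor of 56.5 on all 16 arrays, and Ndufs1 is the exception.

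The study profiled total RNA of rat skeletal muscle on 16 oligonucleotide arrays. The group EOM, extraocular muscle, has 4 arrays, and its labels give no collection time. The muscle labelled TA was taken at 6 hours (TA_6h, 8 arrays) and at 1 hour (TA_1h, 4 arrays), with the starting event of the hours not stated. Strain, age and sex are not stated, no treatment or genotype is given, and nothing in the labels says that the numbered samples are separate animals, so p-values measure a spread that may be technical. Counting arrays that share a number within a group as 1 sample gave 4 EOM, 4 TA_6h and 2 TA_1h samples, and the intensities below are means over a sample's arrays.

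A limit applies to every comparison of EOM with TA. In the EOM columns 24.3% of the deposited intensities lay below 0, and in the TA columns none did. The probes were therefore probably summarised in a different way for the 2 muscles, and an effect of muscle cannot be told apart from one of that step. Both comparisons also use the same EOM samples. Less mRNA per fibre and fewer fibres of a kind in the sample cannot be told apart in whole muscle either.

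Mitochondria oxidise pyruvate, fatty acids and amino acids through the citrate cycle, and the electrons pass through complexes I to IV to oxygen. The proton gradient built on the way drives the ATP synthase, and carriers exchange ADP, ATP and phosphate across the inner membrane. Several subunits and carriers exist as isoform pairs, 1 prevalent in heart and skeletal muscle and 1 present in most tissues. Extraocular muscles move the eye, are in near constant use, and are known for a high content of mitochondria.

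Promoter sequence was available for 40 of the 45 members. Isoform partners are compared within each sample here, so the 250 bases before the start of each gene are shown for the pairs Slc25a4 and Slc25a5 (the muscle and the general ADP/ATP carrier) and Cox8b and Cox8a (the muscle and the general subunit 8 of complex IV). The sequences are RefSeq's, build GRCr8, written 5′ to 3′ on the gene's strand: Slc25a4 at chr16:52805271-52805520 (+), Slc25a5 at chrX:120897366-120897615 (+), Cox8b at chr1:205408274-205408523 (-) and Cox8a at chr1:213833624-213833873 (-). Capitals mark CCGGAAG, the core bound by ETS factors, or its reverse complement, and CAGCTG, an E-box of the kind bound by myogenic factors.
Slc25a4: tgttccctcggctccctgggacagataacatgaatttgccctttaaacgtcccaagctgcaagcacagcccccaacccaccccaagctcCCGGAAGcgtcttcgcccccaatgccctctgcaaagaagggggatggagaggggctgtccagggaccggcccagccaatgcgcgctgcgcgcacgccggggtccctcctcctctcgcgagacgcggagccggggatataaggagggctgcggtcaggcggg
Slc25a5: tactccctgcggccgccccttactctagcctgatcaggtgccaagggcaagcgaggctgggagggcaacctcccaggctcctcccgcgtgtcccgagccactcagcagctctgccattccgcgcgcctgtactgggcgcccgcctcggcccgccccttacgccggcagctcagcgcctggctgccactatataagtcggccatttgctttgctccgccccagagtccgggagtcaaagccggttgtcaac
Cox8b: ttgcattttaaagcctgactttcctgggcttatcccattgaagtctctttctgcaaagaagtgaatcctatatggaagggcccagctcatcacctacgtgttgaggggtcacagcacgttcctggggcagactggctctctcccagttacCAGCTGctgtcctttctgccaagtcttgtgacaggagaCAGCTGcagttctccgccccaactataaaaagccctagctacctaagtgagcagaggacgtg
Cox8a: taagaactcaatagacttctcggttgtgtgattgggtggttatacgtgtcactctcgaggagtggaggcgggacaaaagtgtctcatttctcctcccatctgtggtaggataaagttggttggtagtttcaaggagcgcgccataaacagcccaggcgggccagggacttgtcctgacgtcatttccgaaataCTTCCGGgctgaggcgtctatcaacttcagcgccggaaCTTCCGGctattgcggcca
The E-box stood at -100 and -62 in Cox8b and in none of the other 3 sequences. The ETS core stood at -161 in Slc25a4 and, on the opposite strand, at -57 and -19 in Cox8a. Searched on both strands over the same 250 bases, the ETS core was found in 11 of the 40 member promoters (27.5%) against 7.7% of 27457 rat promoters. The core of nuclear respiratory factor 1, GCGCANGCG, was found in 5 (12.5% against 5.5%), namely Atp5po, Ndufa5, Ndufs6, Ndufv3 and Sdha. The E-box was found in 7 (17.5% against 11.9%), among them Cox8b, Cox6a2 and Cox4i1. No member held TNAAGGTCA, the element of oestrogen-related receptors, which 1.0% of all promoters hold. Member promoters had a median GC content of 59.6% against 52.0%, and these shares are descriptions of letters, not of binding.

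Members went both ways between the muscles. Against TA_6h, 5 of 45 members were higher in EOM and 11 were lower at a limma adjusted p under 0.05, and 29 were not called. That is 11.1% higher and 24.4% lower, where 22.1% and 26.1% of all 4316 genes were called higher and lower. The share of lower members thus lay near that of all genes, and the share of higher members lay under it. The median log2 difference of the members was -0.14, turning to 0.05 after quantile normalization, and that of all genes was -0.10. The median absolute log2 difference was 0.37 over the members and 0.68 over all genes. Members called higher numbered 3 without any 1 EOM sample, TA_6h 1 or TA_6h 2, and those called lower numbered 6 without EOM 1, EOM 3, TA_6h 3 or TA_6h 4 and 7 without EOM 2 or EOM 4.

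Against TA_1h, 4 members were higher and 10 lower (8.9% and 22.2%), beside 18.0% and 19.7% of all genes. The 4 higher became 1 without TA_1h 1 and 2 without EOM 3 or EOM 4, and the 10 lower became 3 without TA_1h 2, 5 without EOM 1 and 6 without EOM 3. Against both TA groups, 3 members were higher, Cox8a, Atp5if1 and Slc25a5 (6.7% beside 16.5%). The 8 members lower against both were Idh2, Suclg1, Mdh2, Ndufs6, Cyc1, Uqcrfs1, Atp5f1d and Slc25a4 (17.8% beside 18.0%). On single arrays, every EOM array lay below every TA array for 9 members, or 20% (all genes 20.8%), and above for 1 member, Slc25a5 (2.2%, all genes 14.5%). When arrays were scaled to the same median, which moves the median of all genes from -0.10 to 0.01, members lower against TA_6h numbered 2 and members higher 5. After quantile normalization 7 were lower and 6 higher.

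**Figure D1:**
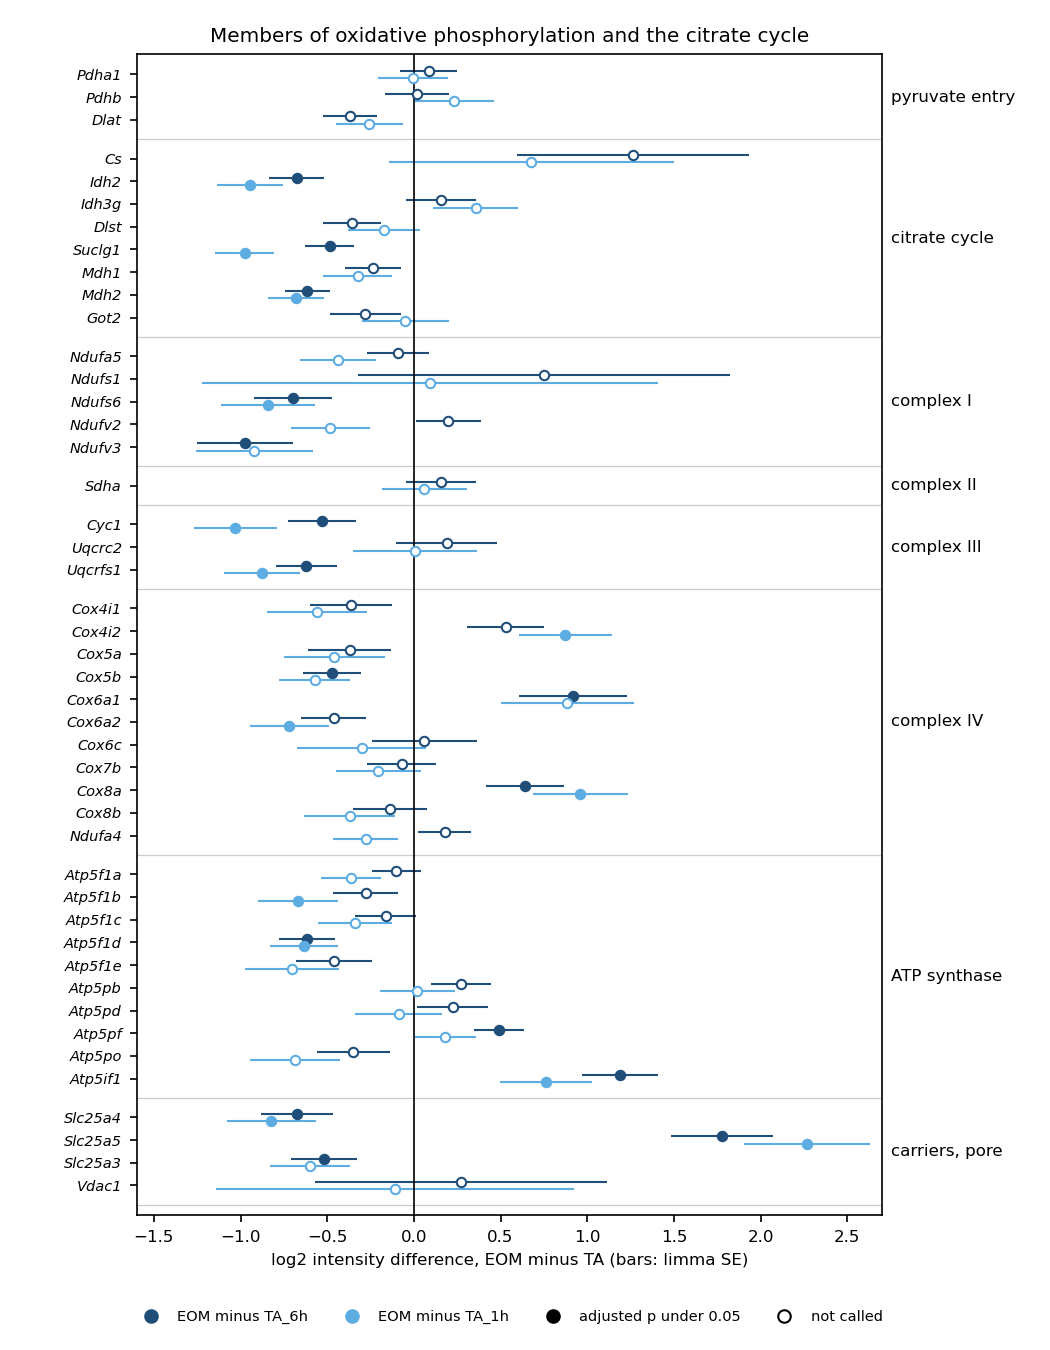
Log2 intensity difference of each of the 45 members, EOM minus TA_6h (dark) and EOM minus TA_1h (light), grouped by role, with limma standard errors as bars and filled points for an adjusted p under 0.05. Slc25a5 stands farthest to the right (1.78 and 2.27), and the called members left of 0 reach down to -1.03 (Cyc1 against TA_1h).

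Pyruvate enters the cycle through the pyruvate dehydrogenase complex, and none of its 3 measured genes was called. Pdha1 and Pdhb, the subunits of its first enzyme, differed from TA_6h by 0.09 ± 0.16 and 0.02 ± 0.18 (log2 ± SE), with 95% intervals of -0.28 to 0.45 and -0.39 to 0.43. Dlat, its acetyltransferase, was at -0.37 ± 0.16 (limma adjusted p = 0.0796) and passed the threshold in 4 of 24 alternative settings. The other Pdha1 probe set gave 1.71 from TA_6h, with a wide 95% interval of -0.35 to 3.77. Other sets gave 0.78 for Pdhb and 0.24 and 0.40 for Dlat, and none of these was called.

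In the citrate cycle, 3 of 8 measured members were lower in EOM against both TA groups (37.5%, beside 18.0% of all genes). The other 5 were not called. Idh2, the NADP-dependent mitochondrial isocitrate dehydrogenase, had intensities of 10987, 11653, 10922 and 12674 in EOM, 15452, 18184, 23947 and 18509 in TA_6h, and 22496 and 22009 in TA_1h. Every EOM sample lay below every TA sample. The log2 difference was -0.68 ± 0.16 from TA_6h (1.60-fold lower, limma adjusted p = 0.0058) and -0.94 ± 0.19 from TA_1h (adjusted p = 0.00367). A further Idh2 probe set gave -0.74 from TA_6h, called, and -0.60 from TA_1h, not called (adjusted p = 0.123). Against TA_6h the call stood in all 24 alternatives.

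Suclg1, the alpha subunit of succinyl-CoA ligase, read 4805, 4965, 5104 and 4456 in EOM, 6156, 6672, 7503 and 6888 in TA_6h, and 9747 and 9270 in TA_1h. The 3 groups did not overlap. Its difference was -0.49 ± 0.14 from TA_6h (limma adjusted p = 0.0161) and -0.97 ± 0.17 from TA_1h (adjusted p = 0.00158). The other Suclg1 probe set gave -0.69 from TA_6h, called, and -0.72 from TA_1h, not called (adjusted p = 0.0972). Mdh2, the mitochondrial malate dehydrogenase, read 12944, 13752, 12799 and 13825 in EOM, 20650, 19965, 21712 and 19697 in TA_6h, and 22524 and 20356 in TA_1h. EOM again lay wholly below TA, at -0.61 ± 0.13 from TA_6h (1.53-fold lower, limma adjusted p = 0.00368) and -0.68 ± 0.16 from TA_1h (adjusted p = 0.00826). After quantile normalization these differences were -0.39 and -0.35, and neither was called. The other Mdh2 probe set gave -0.39 against TA_6h and was not called, and without TA_1h 1 the difference from TA_1h was -0.61 with an adjusted p of 0.0603.

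The remaining cycle members had no call against either TA group. Idh3g, a regulatory subunit of the NAD-dependent isocitrate dehydrogenase, was at 0.16 ± 0.20 against TA_6h. Dlst, the succinyltransferase of the oxoglutarate dehydrogenase complex, was at -0.36 ± 0.17, Mdh1, the cytosolic malate dehydrogenase, at -0.24 ± 0.16, and Got2, the mitochondrial aspartate aminotransferase, at -0.28 ± 0.20. The other Dlst probe set went the other way, at 1.34 from TA_6h, and was not called. Other Got2 sets gave 2.50 and, for a dim one, -0.44, also without a call. Cs, citrate synthase, the usual marker enzyme of mitochondrial content, read 2932, 3526, 3079 and 3205 in EOM, 3256, 3255, 722 and 416 in TA_6h, and 3546 and 1601 in TA_1h. EOM lay near TA_6h 1 and 2 and TA_1h 1, and the 3 other TA samples were lower than any EOM sample.

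Those TA samples also stood apart in the beta-actin control, whose probes lie in the middle and at the 3′ end of the transcript. The ratio of middle to 3′ intensity was between 0.146 and 0.390 on 5 of the 12 TA arrays (both arrays of TA_6h 3 and of TA_6h 4, and 1 of the 2 arrays of TA_1h 2). The remaining 7 TA arrays had ratios of 0.815 to 1.28, and EOM arrays had 0.891 to 0.978. For 4 members all 5 of these low-ratio arrays lay below the other 7 TA arrays: Cs (ratio of medians 0.159), Ndufs1 (0.0551), Vdac1 (0.0635) and Sdha (0.718). For 7 members they all lay above: Ndufs6, Ndufv3, Cox6a1, Cox7b, Cox8b, Atp5f1c and Atp5f1d, with ratios from 1.20 to 2.09. Without these arrays Cs differed from TA_6h by -0.03 (limma adjusted p = 0.876), where all arrays gave 1.26 ± 0.67 (adjusted p = 0.147). Both arrays of TA_6h 3 and of TA_6h 4 had a low ratio, while TA_1h 2 held 1 array of each kind, with ratios of 0.882 and 0.146. On these arrays of TA_1h 2 Cs read 2752 and 451, Ndufs1 798 and 89.4, Vdac1 11604 and 688, and Cox6a1 5391 and 11782, in that order. The part of the low ratio in the other results was not tested beyond the values given with them.

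**Figure D2:**
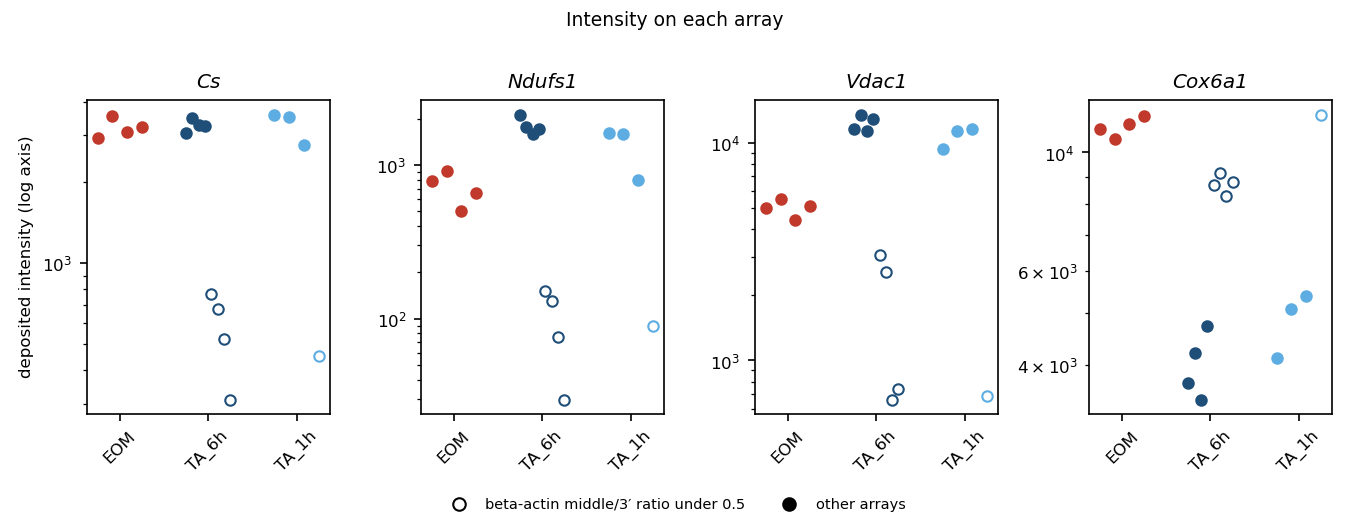
Deposited intensity (log axis) of Cs, Ndufs1, Vdac1 and Cox6a1 on each of the 16 arrays by group, with open points for the 5 TA arrays whose beta-actin middle to 3′ ratio was under 0.5. The open points lie below all other TA arrays for Cs, Ndufs1 and Vdac1 and above them for Cox6a1.

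Complex I takes electrons from NADH, and 2 of its 5 measured members were lower in EOM than in TA_6h while none was higher. That is 40% lower, beside 26.1% of all genes, and 22.1% of all genes were higher. Ndufs6, an accessory subunit of the matrix arm, read 9687, 9802, 10304 and 10091 in EOM, 12192, 13626, 20428 and 20533 in TA_6h, and 14276 and 25071 in TA_1h. No EOM sample reached a TA sample, and the TA samples themselves ranged more than the EOM samples did. The difference was -0.70 ± 0.22 from TA_6h (limma adjusted p = 0.0268) and -0.84 ± 0.27 from TA_1h (adjusted p = 0.0346). Without the low-ratio arrays it was -0.37 from TA_6h (adjusted p = 0.032), and the call was lost without any 1 of the EOM samples, TA_6h 3 or TA_6h 4 (-0.58 to -0.71 in these fits, adjusted p up to 0.0719). Against TA_1h it was lost without any 1 of the EOM samples or TA_1h 2, with -0.51 in the last case.

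Ndufv3, another matrix-arm subunit, was lower than in TA_6h, at -0.98 ± 0.28 (1.97-fold, limma adjusted p = 0.0159). Its EOM values were 7917, 5702, 7830 and 6615, against 10554, 10633, 16526 and 19132 in TA_6h and 9391 and 20782 in TA_1h, with no overlap. Without the low-ratio arrays the difference was -0.60 (adjusted p = 0.0271), and against TA_1h it missed the threshold at -0.92 ± 0.34 (adjusted p = 0.0576). That value was -0.43 without TA_1h 2 (adjusted p = 0.456) and -1.41 without TA_1h 1 (adjusted p = 0.0287), and it was called in 10 of 23 alternatives. Ndufa5 and Ndufv2 were not called, at -0.09 ± 0.18 and 0.20 ± 0.19 from TA_6h.

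Ndufs1, the iron-sulphur subunit that passes electrons along the matrix arm, changed direction with the arrays used. It read 784, 914, 505 and 663 in EOM and 1964, 1670, 142 and 52.5 in TA_6h. EOM lay between TA_6h 1 and 2, which were above it, and TA_6h 3 and 4, which were below it. Over all arrays the difference was 0.75 ± 1.07 (limma adjusted p = 0.585), and without the low-ratio arrays it was -1.37 (adjusted p = 0.0149).

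Complex II, which joins the cycle to the chain, was measured through Sdha, its flavoprotein. Sdha read 9056, 9956, 9325 and 10573 in EOM, 9406, 10159, 8617 and 7018 in TA_6h, and 12152 and 7740 in TA_1h. The groups overlapped, and the difference from TA_6h was 0.16 ± 0.20 with a 95% interval of -0.29 to 0.60.

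In complex III, 2 of 3 measured members were lower in EOM against both TA groups (66.7%, beside 18.0% of all genes). Cyc1, the cytochrome c1 subunit, read 12480, 13718, 12601 and 12474 in EOM, 14757, 15548, 23753 and 22151 in TA_6h, and 23665 and 31628 in TA_1h. All 4 EOM samples lay below all 6 TA samples, with TA_6h 1 and 2 nearest to them. The difference was -0.53 ± 0.20 from TA_6h (limma adjusted p = 0.0479) and -1.03 ± 0.24 from TA_1h (2.04-fold lower, adjusted p = 0.00767). Against TA_6h the call was lost in 8 of the 10 fits without 1 sample, those without any EOM or TA_1h sample or without TA_6h 3 or 4 (-0.41 to -0.56), and without the low-ratio arrays (-0.23, adjusted p = 0.165). Against TA_1h it was lost without TA_1h 2 (-0.86, adjusted p = 0.0764).

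Uqcrfs1, the Rieske iron-sulphur protein, read 16416, 18128, 15651 and 17918 in EOM, 24074, 20472, 33253 and 29641 in TA_6h, and 30100 and 35165 in TA_1h. EOM was the lowest group with no overlap, at -0.62 ± 0.18 from TA_6h (limma adjusted p = 0.0167) and -0.88 ± 0.22 from TA_1h (adjusted p = 0.0105). Its 2 other probe sets gave 0.34 and 0.48 against TA_6h and were not called, so the direction rested on the set used. Without the low-ratio arrays the difference from TA_6h was -0.38 (adjusted p = 0.0729), and without TA_1h 2 that from TA_1h was -0.79 (adjusted p = 0.08). After quantile normalization Uqcrfs1 was at -0.14 from TA_6h (limma adjusted p = 0.384) and -0.22 from TA_1h (adjusted p = 0.299). Uqcrc2, a core protein, was at 0.19 ± 0.29 from TA_6h.

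Complex IV, cytochrome c oxidase, hands the electrons to oxygen. Of 11 measured members, 2 were higher in EOM than in TA_6h (Cox6a1 and Cox8a), 1 was lower (Cox5b) and 8 were not called. That is 18.2% higher and 9.1% lower, beside 22.1% and 26.1% of all genes. Cox8a, the isoform of subunit 8 found in most tissues, read 14682, 16128, 12919 and 15683 in EOM, 7454, 7564, 11081 and 13132 in TA_6h, and 6388 and 9066 in TA_1h. EOM was above TA_1h and TA_6h 1 to 3 throughout, and TA_6h 4 lay above the lowest EOM sample. The difference was 0.64 ± 0.22 from TA_6h (1.56-fold higher, limma adjusted p = 0.0396) and 0.96 ± 0.28 from TA_1h (adjusted p = 0.0208). It was 0.98 without the low-ratio arrays. Of the 3 other Cox8a probe sets, 2 were called in the same direction (0.84 and 1.58) and 1 was at -0.03. The TA_6h call was lost in 6 of the 10 fits without 1 sample, each EOM sample and TA_6h 1 and 2 (0.52 to 0.70), and the TA_1h call without TA_1h 1 (0.71, adjusted p = 0.176).

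Cox6a1, the general isoform of subunit 6a, read 11050, 10595, 11320 and 11719 in EOM, 3952, 4084, 8929 and 8557 in TA_6h, and 4609 and 8586 in TA_1h. Every EOM sample was above every TA sample, although 1 single array of TA_1h 2 reached 11782. The difference from TA_6h was 0.92 ± 0.31 (1.89-fold higher, limma adjusted p = 0.0345) and rose to 1.49 without the low-ratio arrays (adjusted p = 0.000127). A further Cox6a1 probe set gave 1.88 (adjusted p = 2.88e-05). The call was lost without any 1 EOM sample, TA_6h 1 or TA_6h 2 (0.73 to 0.94, adjusted p up to 0.0892), and against TA_1h the difference of 0.89 ± 0.38 had an adjusted p of 0.0972. Against TA_1h it was 0.49 without TA_1h 1 and 1.28 without TA_1h 2, neither called, and 1.17 without the low-ratio arrays (adjusted p = 0.000307).

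The muscle partners of Cox6a1 and Cox8a were not called higher on the probe sets used. Cox6a2 was at -0.46 ± 0.19 from TA_6h (limma adjusted p = 0.064) and was lower than in TA_1h, at -0.72 ± 0.23 (adjusted p = 0.0313), a call lost without EOM 1 (-0.68), EOM 3 (-0.65) or TA_1h 2 (-0.48). A dim Cox6a2 probe set went the other way and was called higher, 1.54 from TA_6h. Cox8b was at -0.14 ± 0.22. Cox4i2, the isoform of subunit 4 best known from lung and low oxygen, was at 0.53 ± 0.22 (adjusted p = 0.0731) and higher than in TA_1h by 0.87 ± 0.27 (adjusted p = 0.0282). The Cox4i2 call was lost without EOM 3, EOM 4, TA_1h 1 or TA_1h 2 (0.78 to 0.97), and without the low-ratio arrays the difference from TA_6h was 0.79 and called (adjusted p = 0.0251). Cox4i1, its general partner, was at -0.36 ± 0.24, and its other probe sets gave 0.18 and 0.10 from TA_6h without a call.

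Cox5b, a nuclear-encoded subunit present in all tissues, was lower than in TA_6h, at -0.47 ± 0.17 (limma adjusted p = 0.0401). It read 15412, 17407, 15172 and 16816 in EOM against 23016, 18875, 23076 and 25737 in TA_6h, with no overlap. The call was lost in 7 of 10 fits without 1 sample (each EOM sample and TA_6h 1, 3 and 4, -0.41 to -0.51) and without the low-ratio arrays (-0.36, adjusted p = 0.0616), and the other Cox5b probe set gave 0.20. Cox5a, Cox6c, Cox7b and Ndufa4, the last a subunit first assigned to complex I, were not called, at -0.37, 0.06, -0.07 and 0.18 from TA_6h.

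In the ATP synthase, 2 of 10 measured members were higher, 1 was lower and 7 were not called against TA_6h. These shares, 20% and 10%, stand beside 22.1% and 26.1% of all genes. Atp5if1, the inhibitory factor that blocks ATP hydrolysis when the gradient fails, read 2552, 2327, 2383 and 2731 in EOM, 1229, 1101, 879 and 1280 in TA_6h, and 1078 and 2362 in TA_1h. EOM was well above TA_6h with no overlap, and TA_1h 2 reached the EOM range. The difference was 1.19 ± 0.22 from TA_6h (2.28-fold higher, limma adjusted p = 0.0015) and the call stood in all 24 alternatives. From TA_1h it was 0.76 ± 0.27 (adjusted p = 0.0474), and this call was lost in 7 of 10 fits without 1 sample (each EOM sample, TA_1h 1, TA_6h 1 and TA_6h 2), with 0.31 without TA_1h 1. The 3 tested Atp5if1 probe sets carry the platform's mark for sequences shared within a gene family, and the other two gave 1.92 and 1.73.

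Atp5pf, coupling factor 6 of the stalk, was higher than in TA_6h by 0.49 ± 0.14 (limma adjusted p = 0.0191). It read 12826, 12548, 12281 and 12879 in EOM against 9240, 8457, 9444 and 8938 in TA_6h, without overlap, and 9675 and 13459 in TA_1h, from which it was at 0.18 ± 0.18. The other Atp5pf probe set gave 0.11. Atp5f1d, the delta subunit of the rotor, read 9528, 8150, 10037 and 9327 in EOM, 13441, 13121, 14860 and 15384 in TA_6h, and 12180 and 17425 in TA_1h. The other Atp5f1d probe set gave -0.70 from TA_6h, called, and -0.44 from TA_1h, not called (limma adjusted p = 0.236). On the set used, Atp5f1d was lower without overlap, at -0.62 ± 0.16 from TA_6h (adjusted p = 0.0104) and -0.63 ± 0.20 from TA_1h (adjusted p = 0.0291). Against TA_1h the call was lost without EOM 1, EOM 2, EOM 4 or TA_1h 2 (-0.40 to -0.65).

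The catalytic core was not called against TA_6h. Atp5f1a, Atp5f1b and Atp5f1c, the alpha, beta and gamma subunits, were at -0.10 ± 0.14, -0.28 ± 0.19 and -0.16 ± 0.18. Atp5f1b was lower than in TA_1h, at -0.67 ± 0.23 (limma adjusted p = 0.0444), a call lost without EOM 1, 2, 3 or 4 or either TA_1h sample (-0.45 to -0.89). The epsilon, b, d and oligomycin-sensitivity subunits Atp5f1e, Atp5pb, Atp5pd and Atp5po were at -0.46, 0.27, 0.22 and -0.35 from TA_6h with no call.

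Of the 4 measured carriers and pores 1 was higher, 2 were lower and 1 was not called against TA_6h. That is 25% and 50%, beside 22.1% and 26.1% of all genes. Slc25a5 had the largest difference of the 45 members in both comparisons. Slc25a5, the ADP/ATP carrier of most tissues, read 4479, 5511, 3432 and 4132 in EOM, 1855, 1757, 1041 and 776 in TA_6h, and 1032 and 839 in TA_1h. It was higher in EOM on every array, and within TA it was higher in TA_6h 1 and 2 than elsewhere. The difference was 1.78 ± 0.29 from TA_6h (3.43-fold higher, limma adjusted p = 0.000839) and 2.27 ± 0.36 from TA_1h (4.81-fold, adjusted p = 0.000933). Against TA_6h it was 1.28 without the low-ratio arrays and stayed called in all 24 alternatives. Slc25a5 has 1 probe set, so the second-probe-set alternative only repeats the main fit.

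Slc25a4, the carrier of heart and skeletal muscle, was lower in EOM. It read 15947, 19997, 15603 and 20384 in EOM, 24314, 22046, 36369 and 36853 in TA_6h, and 29946 and 37243 in TA_1h. EOM lay below TA with no overlap, at -0.68 ± 0.21 from TA_6h (1.60-fold lower, limma adjusted p = 0.0225) and -0.82 ± 0.25 from TA_1h (adjusted p = 0.0288). After quantile normalization the differences were -0.21 from TA_6h (limma adjusted p = 0.228) and -0.15 from TA_1h (adjusted p = 0.526). Without the low-ratio arrays the difference from TA_6h was -0.37 (adjusted p = 0.156). Leaving out EOM 1, EOM 3, TA_6h 3 or TA_6h 4 also lost that call (-0.55 to -0.62), and leaving out EOM 1, EOM 3 or either TA_1h sample lost the call against TA_1h (-0.72 to -0.92).

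Slc25a3, the phosphate carrier, was lower than in TA_6h, at -0.52 ± 0.19 (limma adjusted p = 0.0451). It read 14471, 15399, 13205 and 14483 in EOM and 19117, 15242, 24227 and 26305 in TA_6h, and 1 EOM sample exceeded TA_6h 2. The call was lost in 9 of 10 fits without 1 sample, all but the one without TA_6h 2, with adjusted p up to 0.107, and without the low-ratio arrays (-0.24, adjusted p = 0.322). Vdac1, the outer-membrane pore, read 4992, 5517, 4424 and 5125 in EOM and 12541, 12100, 2808 and 698 in TA_6h. As for Ndufs1, EOM lay between the TA_6h pairs: the difference was 0.27 ± 0.84 over all arrays and -1.30 without the low-ratio arrays (adjusted p = 0.000337).

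**Figure D3:**
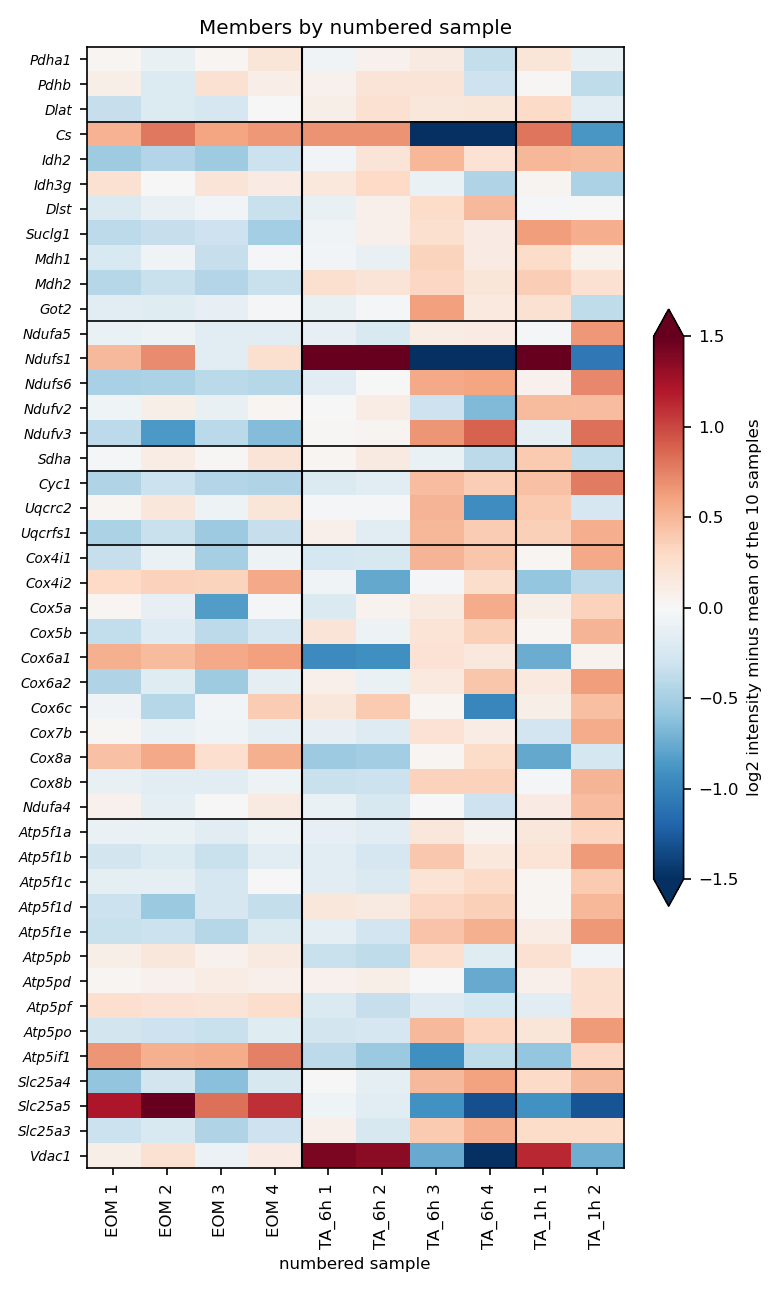
Log2 intensity of each member in each of the 10 numbered samples minus the gene's mean over the 10 samples (red above, blue below, colour limited to 1.5 either way), with lines between roles and groups. Slc25a5, Cox6a1, Cox8a and Atp5if1 are red across EOM, and Cs, Ndufs1 and Vdac1 differ between TA_6h 1 and 2 and TA_6h 3 and 4.

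Isoform partners were then set against each other within each sample, which removes any scaling shared by the array. Of 8 listed pairs, 5 had both partners measured. The log2 difference between partners compares no level, since probe sets differ in brightness. Its change between muscles shows that the 2 intensities changed unequally. A summary step that acts differently on dim and bright probe sets is not removed, and cannot be told apart from an effect of muscle. For Slc25a5 less Slc25a4 it was -2.04 ± 0.24 in EOM (SD, n = 4), -4.50 ± 0.95 in TA_6h (n = 4) and -5.13 ± 0.42 in TA_1h (n = 2). EOM spanned -2.30 to -1.83 and TA_6h -5.57 to -3.68, so the balance moved toward Slc25a5 in EOM by 2.45.

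In complex IV the Cox6a and Cox8 pairs moved toward the general isoform, and the Cox4 pair moved toward Cox4i2, away from the general Cox4i1. Cox6a1 less Cox6a2 was -0.70 ± 0.21 in EOM and -2.08 ± 0.51 in TA_6h, a shift of 1.38. Cox8a less Cox8b was -0.56 ± 0.13 and -1.33 ± 0.10, a shift of 0.78, with -1.89 ± 0.02 in TA_1h. Cox4i2 less Cox4i1 was -2.56 ± 0.16 and -3.45 ± 0.36, a shift of 0.89. In each of these pairs the EOM samples did not overlap the TA_6h samples. The cytosolic and mitochondrial malate dehydrogenases, Mdh1 less Mdh2, were at 0.27 ± 0.10 in EOM and -0.11 ± 0.17 in TA_6h, a shift of 0.38 without overlap.

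The pairs were chosen with earlier results of these data known, so the shifts are a description with no test. All 5 kept their sign in 21 of 21 alternatives, which change neither partner's probe set. Many of these could not move a shift. The filters, the replicate block, the intensity trend, a common median and leaving out a TA_1h sample do not enter it. The shift of the ADP/ATP carriers was lowest without the low-ratio arrays (1.65) and highest with only these arrays as TA (3.26). That of Cox6a was lowest with only these arrays as TA (0.96) and highest without them (1.80). The lowest and highest values were 0.36 and 1.05 for Cox4, 0.64 and 0.83 for Cox8, and 0.24 and 0.56 for malate dehydrogenase. Other probe sets moved the shifts further, in an alternative added after seeing the data, and the ADP/ATP carriers have 1 probe set each. The other Mdh2 set brought the malate dehydrogenase shift to 0.15, and the other Cox4i1 sets brought the Cox4 shift to 0.35 and 0.43, with overlap between EOM and TA_6h in all 3 cases. For Cox8 the 7 other combinations gave 0.11 to 1.98, 5 of them without overlap. For Cox6a 6 of 8 other combinations were positive, up to 2.35, and 2 that use the dim Cox6a2 set were negative, -0.62 and -0.88.

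**Figure D4:**
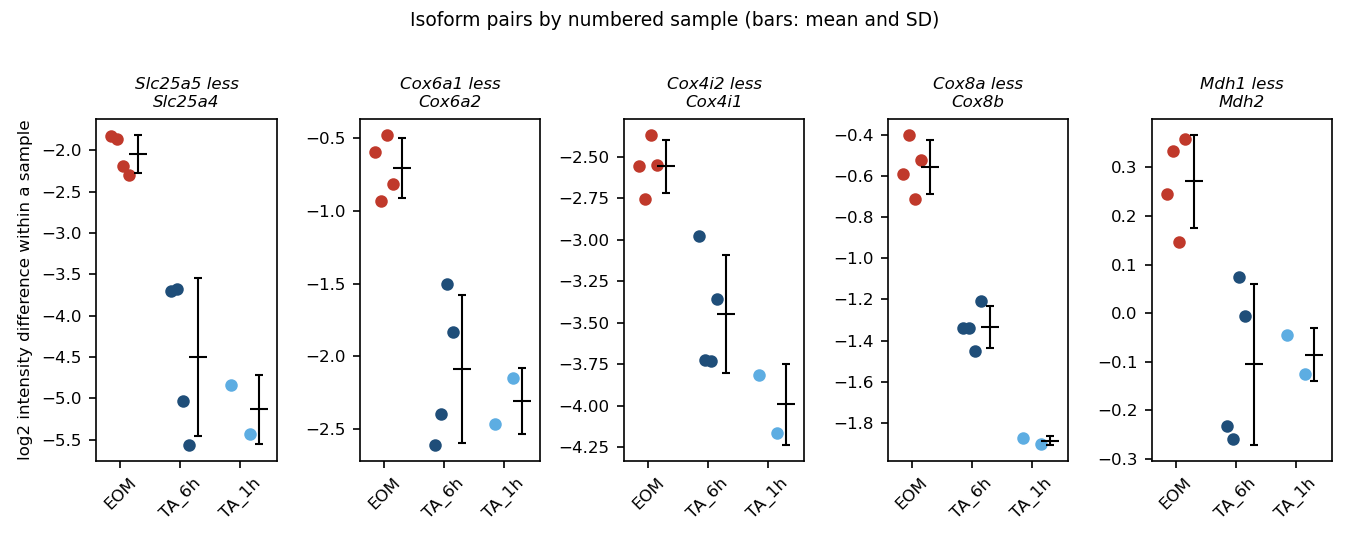
Log2 intensity difference between isoform partners within each numbered sample, by group, for the 5 measured pairs, with the mean and SD of each group as bars. On the probe sets used, the 4 EOM samples of every panel lie above the 4 TA_6h and the 2 TA_1h samples.

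Markers of other cell types moved with the same contrast, in which 22.1% of all 4316 genes were higher and 26.1% lower. Of 10 tested nerve and Schwann cell markers 7 were higher in EOM than in TA_6h and none lower, with summed intensities of 11137 to 15346 in EOM and 2834 to 3623 in TA_6h. Among them Mbp, a myelin protein, was at 3.09 and S100b, a Schwann cell protein, at 3.17. Fibroblast and matrix markers were higher in 6 of 12 and lower in 1 (sums 90314 to 106170 against 65768 to 98791), with Lum at 4.42 and Col1a1 at -0.09. Immune markers were higher in 6 of 10 and lower in 2 (sums 12041 to 17758 against 4136 to 7437), with Cd8a and Cma1 under the floor on 4 and on 2 of the 4 EOM arrays. Their part in the shift toward the general isoforms Slc25a5, Cox6a1 and Cox8a was not tested.

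Adipocyte markers were higher in 4 of 9 and lower in 2 (sums 15949 to 19564 against 11230 to 15393), with Lipe and Plin1 under the floor on all 4 EOM arrays. Endothelial markers were lower in 2 of 5 (sums 1332 to 1935 against 1995 to 2884), with Vwf and Icam2 under the floor on all EOM arrays, and red blood cell markers were lower in 2 of 4 (sums 26941 to 33188 against 36087 to 53293). Of 10 general skeletal muscle markers 1 was higher and 5 were lower (sums 116468 to 142696 against 125792 to 302284). The higher one, Ckm, at 4.39, exceeded the floor on only 5 of the 8 TA_6h arrays. Ckm and Acta1 each exceeded it on 3 of the 4 TA_1h arrays. Of 7 slow-fibre markers 2 were higher and 3 lower (sums 38168 to 38941 against 48445 to 84076). The extraocular myosin Myh13 was higher by 5.18, Myh8 by 6.70 and Myh3 by 1.41, so the genes that mark extraocular muscle were high in the arrays labelled EOM.

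The intensity range itself moved with the comparison. Over genes with a mean intensity of at least 8000, a limit chosen after seeing the data, the median log2 difference of EOM from TA_6h was -0.29 for all 172 genes and -0.28 for the 31 members among them. Of these, 35.5% of all genes and 32.3% of the members were called lower, and 6.98% and 6.45% were called higher. The 14 members under that limit had a median of 0.21, with 3 higher and 1 lower, where all 4144 genes under it had -0.09. Of the 11 members called lower than in TA_6h, 10 belong to the intense genes, all but Suclg1. The part of the summary step in their lower values was not tested.

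Between the TA groups no member was called, and neither was any other gene (0 of 4316, 0%). At an unadjusted limma p under 0.05 there were 250 of 4316 genes and 3 of 45 members. Both shares lie near the 0.05 that this threshold passes with no difference, so the 3 are no result about the members. They were Suclg1 (-0.49 ± 0.17, TA_6h minus TA_1h), Ndufv2 (-0.68 ± 0.23) and Ndufa4 (-0.46 ± 0.19). By sign 36 of 45 members were lower at 6 hours than at 1 hour, beside 2035 of all 4316 genes. The median was -0.18 for the members and 0.02 for all genes. Intense genes leaned the same way. With a mean intensity of at least 8000, 106 of 172 genes were lower (median -0.09), among them 28 of the 31 members. The part of intensity in the lean of the members was not tested. Without TA_1h 2 the median of the members was -0.08 with 28 lower, and without TA_1h 1 it was -0.34 with 29 lower. TA_1h rested on 2 samples, 1 of them with a low-ratio array, and without the low-ratio arrays 33 members were lower. After quantile normalization 28 were.

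The rest of the pathway, taken from gene lists outside the 59, also went both ways against TA_6h. Of 23 further subunits and cycle enzymes tested, 3 were higher and 3 lower (13% each, beside 22.1% and 26.1% of all genes). The 4 largest differences among these 6 called genes belong to complex I: Ndufb1 was higher by 1.00 ± 0.18 (limma adjusted p = 0.00124) and Ndufc2 by 0.61 ± 0.15, while Ndufs7 was lower, at -1.07 ± 0.20 (adjusted p = 0.00176) and Ndufs8 at -0.70 ± 0.24. From TA_1h, Ndufb1 (0.77) and Ndufs7 (-1.25) were also called, and Ndufc2 (0.18) and Ndufs8 (-0.51) were not.

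Of 8 tested genes that control the fate of pyruvate, 2 were higher and 2 lower, 25% each and near the 22.1% and 26.1% of all genes. Pdk2, a kinase that switches pyruvate dehydrogenase off, was lower, at -1.45 ± 0.20 (2.72-fold, limma adjusted p = 0.000282), and Pdk1, another such kinase, was higher by 0.95 ± 0.23. Ldhb, the lactate dehydrogenase subunit of heart and oxidative muscle, was higher by 1.17 ± 0.22 (2.25-fold, adjusted p = 0.00183). Mpc1, part of the carrier that brings pyruvate into mitochondria, was lower, at -0.50 ± 0.17. From TA_1h, Pdk2 (-1.06), Ldhb (1.49) and Mpc1 (-0.75) were also called, and Pdk1 (0.76) was not.

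Among 9 genes of electron transfer and uncoupling none was higher and 3 were lower, 33.3% beside 26.1% of all genes: Ucp3, the muscle uncoupling protein homologue, at -1.78 ± 0.55, Ucp2 at -0.92 ± 0.19, and Coq3, which methylates ubiquinone precursors, at -0.87 ± 0.18. Of 11 other carriers and import proteins, Slc25a11, the oxoglutarate carrier (1.05 ± 0.35), and Timm17a, an inner-membrane import channel protein (0.64 ± 0.17), were higher, and the chaperonin Hspd1 was lower (-0.57 ± 0.18). These shares, 18.2% and 9.1%, stand beside 22.1% and 26.1% of all genes. From TA_1h, Slc25a11 (0.43), Timm17a (-0.04), Hspd1 (-0.55), Ucp3 (-1.40) and Ucp2 (-0.28) were not called, and Coq3 (-1.14) was. Of 3 tested regulators of mitochondrial genes, Esrra, an oestrogen-related receptor, was lower, at -0.94 ± 0.25, and Mef2d at -1.01 ± 0.23 (66.7%, beside 26.1% of all genes). Both were also called lower than in TA_1h (Esrra -1.11 and Mef2d -0.94).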

How the data were processed

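Total RNA of rat muscle was measured on 16 single-colour oligonucleotide arrays with 8799 probe sets. The deposited files hold linear intensities, a single value for each probe set on each array. The authors' summary method is not stated in the labels used here. Read from the values, each array had been scaled, with means between 801.1 and 801.8 after trimming. Probe sets were named through GEO's platform annotation: 7018 have 1 symbol, 308 several and 1473 none. All 45 members matched a gene number in RefSeq, and no symbol changed.

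Intensities under a floor of 56.5, the 25th percentile of all values, were set to that floor before log2 transformation. Arrays of 1 number were averaged; joining the unlettered TA_6h arrays 1 and 2 with those lettered b is an inference. Probe sets exceeding the floor on 4 or more arrays, 7640 in number, entered limma 3.58.1 (R 4.3.3) in a fit of all 3 groups (7 residual and 2.83 prior degrees of freedom), after checks on simulated data. Every adjusted p is from this fit or its alternatives, with Benjamini-Hochberg adjustment over all probe sets tested and calls under 0.05. Folds are on the floored log2 scale. Isoform pairs are described without their planned exact test, since they were chosen with results known. Figures were drawn with matplotlib 3.10.9.

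The labels give EOM and TA_6h the same numbers, 1 to 4, but same-numbered samples did not deviate together (correlations 0.105, 0.021, 0.032 and 0.071), so no block was used. The members, lists, isoform pairs and motifs were chosen with earlier results of these data known. Any member with a probe set could be named, those called against both TA groups with values per sample, and of other pathway lists up to 4 called genes with the largest differences. Cox5b, Ndufv3, Cox6a1, Atp5pf, Cs, Sdha, Ndufs1, Vdac1 and Slc25a3, given per sample too, were added after their values were seen. In all, 24 alternatives were tried, including other floors, normalizations, probe sets and left-out samples. The number of arrays limits the precision.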

Additional observations from a re-analysis of the deposited data

Results flagged for a closer look

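In 90 groups of 4 samples (45 members in EOM and in TA_6h), 3 held a sample that stood apart from its group by Dixon's criterion, where chance alone gives about 1 in 20. Cyc1 read 13717.6 in EOM 2, and the other EOM samples read 12473.7 to 12601.3. Cox4i2 read 2753.58 in EOM 4, and the others read 2275.91 to 2346.37. Atp5pd, the d subunit of the ATP synthase stalk, read 7932.36 in TA_6h 4, and the others read 13315.1 to 14263.5. TA_6h 4 is 1 of the samples with a low beta-actin ratio on both arrays.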

How the results depend on the processing

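Against TA_6h, 3 of the 16 called members (Idh2, Atp5if1 and Slc25a5) kept their call in all 24 alternatives and 8 kept it in at least 20. For members with 1 probe set, such as Slc25a5, the second-probe-set alternative repeats the main fit. Members called higher, 5 as reported, numbered 3 with the replicate block and 8 with only the low-ratio arrays as TA, an alternative added after seeing the data. Those called lower, 11 as reported, numbered 7 after quantile normalization, 2 with a common median, 7 with the second probe set and 20 with only the low-ratio arrays as TA. Quantile normalization took the TA_6h call from Mdh2, Cyc1, Uqcrfs1, Cox5b, Slc25a4 and Slc25a3. Leaving out the low-ratio arrays gave 7 higher and 8 lower. Of the 11 lower as reported, 5 lost the call there and all 11 differences were smaller in size. Without single samples the counts ran from 3 to 6 higher and from 6 to 11 lower. Against TA_1h, the 4 higher became 2 after quantile normalization and 1 with the replicate block, and the 10 lower became 6 after quantile normalization, 5 with a common median and 6 with the second probe set. Without single samples these ran from 1 to 4 and from 3 to 14. The replicate block moved the lower members to 8 and 7, and the samples share only a number. Ndufs1 turned to -1.37 from TA_6h without the low-ratio arrays, and to -1.31 from TA_6h and -0.94 from TA_1h with the low ratio as a covariate. Vdac1 turned to -1.30 and -1.41 from TA_6h in these fits. Uqcrfs1 and Cox5b were at 0.34 and 0.20 with the second probe set, and Atp5f1b at 0.0539 from TA_1h after quantile normalization. The Cox6a pair turned from 1.38 to -0.62 and -0.88 with the dim Cox6a2 probe set, also added after seeing the data. The causes were not tested. No member was called between the TA groups in any of 23 alternatives.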
